A study of Homo sapiens with 3 samples.

Results

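The PAR bZIP genes DBP, TEF and HLF and their competitor NFIL3 were examined for CRY1 occupancy in C4-2 cells, an established castration-resistant human prostate cancer line. Of 2551 CRY1 peaks in the list, 10 had their summit inside 1 of these 4 genes or within 50 kb of one, and all 10 belonged to the 3 activator genes: 2 to DBP, 4 to TEF and 4 to HLF. No peak lay within that distance of NFIL3. The member summit farthest outside its gene was 26507 bp away, at HLF, and widening the window to 100 kb added no summit to any of the 4 genes. The series comprised 3 libraries: 2 CRY1 immunoprecipitates, made with a CRY1 antibody described by another laboratory, and 1 input. All cells were kept in hormone-proficient medium and carry the label Veh, for vehicle. The agent that served as vehicle is not given in the sources used here, and no engineered allele is named for these libraries. Peaks were called on both immunoprecipitates together, so no value below has a replicate error, sequencing depth is unknown, and no test between genes was possible. A peak list holds no expression, so the prostate identity of the cells was not checked here.

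The PAR bZIP proteins are transcription factors named for a proline- and acidic-residue-rich stretch beside their basic leucine zipper. They activate genes through an element known as the D-box, whereas NFIL3 (also called E4BP4) binds the same element and represses. In the textbook clock, CLOCK and BMAL1 switch on Dbp through E-boxes with the sequence CACGTG, and CRY1 and the PER proteins oppose them there. NFIL3 is known as a target of the ROR activators and REV-ERB repressors, which act through ROR response elements (ROREs), and it is therefore produced out of phase with DBP. The comparison below asks which of these output genes CRY1 occupied, and where.

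The sequences at the strongest summits are shown first, since the 3 activator genes differed in which motif stood there. Each is read from GRCh37 on the strand of the gene, 5′ to 3′. In the windows at the internal DBP summit, the TEF summit and the HLF intron summit, capitals mark the E-box. In the upstream DBP window they mark both matches to the RORE consensus. In the upstream HLF window they mark 3 E-boxes and, ahead of the last of these, a RORE. At the HLF start they mark a cyclic AMP response element (CRE, TGACGTCA) and the E-box-like hexamer CACATG.
DBP upstream, chr19:49140967-49141067, minus strand: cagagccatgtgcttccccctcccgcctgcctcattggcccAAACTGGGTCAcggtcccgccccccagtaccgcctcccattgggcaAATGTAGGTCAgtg
DBP internal, chr19:49137908-49138008, minus strand: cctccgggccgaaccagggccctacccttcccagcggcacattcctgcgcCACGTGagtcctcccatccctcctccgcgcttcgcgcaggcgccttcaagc
TEF internal, chr22:41777385-41777485, plus strand: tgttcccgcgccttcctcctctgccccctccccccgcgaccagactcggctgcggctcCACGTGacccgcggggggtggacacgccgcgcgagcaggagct
HLF upstream, chr17:53315739-53315864, plus strand: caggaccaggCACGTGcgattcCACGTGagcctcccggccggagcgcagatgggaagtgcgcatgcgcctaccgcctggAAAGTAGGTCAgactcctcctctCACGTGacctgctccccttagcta
HLF start, chr17:53342246-53342347, plus strand: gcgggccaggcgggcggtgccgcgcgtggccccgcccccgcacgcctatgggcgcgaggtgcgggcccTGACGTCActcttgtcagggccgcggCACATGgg
HLF intron, chr17:53363007-53363107, plus strand: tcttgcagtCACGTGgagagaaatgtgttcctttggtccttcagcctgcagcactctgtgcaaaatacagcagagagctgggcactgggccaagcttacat

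DBP, the most strongly rhythmic of the activators in many tissues, carried 2 peaks, and both were strong. The stronger peak (chr19:49140562-49141392) had a fold enrichment of 17.1, the ratio of read pileup at the summit to the local background, and its −log10 q (q being the false discovery rate given by the peak caller) was 49.4. It ranked 28 of the whole list by fold enrichment, and its summit lay 381 bp upstream of the main DBP start (DBP spans chr19:49133287-49140636 on the minus strand). The peak therefore covered the DBP promoter. Its summit was also 311 bp from the start of SEC1P, a transcribed pseudogene that runs away from DBP on the other strand, and 186 bp from the 3′ end of CA11, a carbonic anhydrase-related gene. DBP and SEC1P cannot be told apart as the gene this peak serves from its position alone.

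The other DBP peak (chr19:49137719-49138406) had a fold enrichment of 12.7, with a −log10 q of 31.2, with rank 103. Its summit lay 2678 bp inside the gene, in the second intron of the canonical transcript DBP-201, and 65 bp upstream of the start of a shorter annotated transcript, DBP-204. It counts as a promoter summit when all transcripts are used and as an intron summit when only the canonical one is. The 2 DBP summits were 3059 bp apart. In the mouse gene, E-boxes in the introns as well as upstream are textbook sites of CLOCK binding.

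The DBP peaks differed in their sequence. The internal summit lay 3 bp from the centre of an E-box, and a further E-box stood 138 bp downstream within the same peak. The upstream peak, although higher in fold enrichment, contained 0 E-boxes over its 831 bp, and the nearest E-box was 3062 bp from its summit. It held instead both of the 2 RORE matches found in DBP and its 50 kb flanks, centred 4 bp upstream and 42 bp downstream of the summit in the direction of transcription. It also held 1 CACATG, a hexamer found within 50 bp of 11% of all summits.

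TEF, first described as a factor of pituitary thyrotrophs, carried 4 peaks of very unequal strength. TEF (chr22:41763337-41795330, plus strand) has a distal start, used by TEF-202, and an internal start 14609 bp further on, used by the canonical TEF-201. The strongest peak (chr22:41775940-41778587) had a fold enrichment of 15.2, with a −log10 q of 72.5, which ranked 50 and 13 respectively in the list. It was 2648 bp wide, and its summit lay 511 bp upstream of the internal start, within the first intron of TEF-202. An E-box stood 11 bp from this summit, and 2 more stood in the same peak at 101 bp upstream and 321 bp downstream of it.

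The distal TEF start had 2 weaker peaks. One (chr22:41762947-41763149) had a fold enrichment of 3.92, with a −log10 q of 2.43, with its summit 347 bp upstream of the start. The other (chr22:41763265-41763635) reached 5.84 and 6.34, with its summit 159 bp downstream, in the 5′ UTR. The remaining TEF peak (chr22:41775280-41775424), inside the first intron of TEF-202, had the lowest −log10 q of the 10, at 2.12, with a fold enrichment of 3.97. Of its 71 overlapping 31-base words around the summit, 22.5% occurred more than once in the genome, whereas the windows of the other 9 summits held 0 repeated words. The summit of this intron peak was 2068 bp from the start of RNU6-495P, annotated as a small nuclear RNA, and 2591 bp from that of TEF-201.

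None of the 3 weaker TEF peaks contained a complete E-box. The distal TEF start does have one, 71 bp upstream of it, and this E-box lay across the edge of the downstream peak: the E-box began at position 41763264 and the peak at 41763265. The 2 peaks there were separated by 115 bases and their summits by 506 bp. The E-box is shown with the other TEF and DBP E-boxes that lay inside a peak but over 50 bp from its summit, with the hexamer in capitals and 10 bases on each side.
TEF distal start, chr22:41763254-41763279, plus strand: gcgacagctcCACGTGctgcagctgg
TEF internal, upstream of the summit, chr22:41777322-41777347, plus strand: cacagccccgCACGTGcggcgcctcg
TEF internal, downstream of the summit, chr22:41777743-41777768, plus strand: cctggccccgCACGTGtctatcttat
DBP internal, downstream of the summit, chr19:49137808-49137833, minus strand: caggcgtcagCACGTGactcggccct

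HLF, known also from its fusion with TCF3 in leukaemia, carried 4 peaks. The strongest (chr17:53341973-53342729) covered the start of the gene (chr17:53342321-53402548, plus strand), with a fold enrichment of 13.9 and rank 74, and its −log10 q was 36.2. Its summit was 25 bp downstream of the first base of HLF-201. This peak contained 0 E-boxes and the nearest was 1288 bp from the summit. A GC box (GGGCGG), a motif found within 50 bp of 27% of all summits, began 1 bp upstream of the summit and runs past the end of the window printed above. The CACATG was centred 3 bp upstream of the summit and the CRE 28 bp upstream, where it overlaps the first base of the transcript. A CRE lay within 50 bp of only 6 of 2549 summits, or 0.235%, and in 2.32% of promoters of protein-coding genes.

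The upstream HLF peak (chr17:53314327-53316667) lay 26507 bp before the gene and was the only 1 of the 10 more than 10 kb from a start of its gene. It had a fold enrichment of 8.09, with a −log10 q of 46.2, and its 2341 bp made it the second-widest of the 10. HLF was the gene with the nearest annotated start. The peak held 3 E-boxes, of which 1 was 30 bp from the summit. The other 2 formed an exact pair 6 bases apart, centred 63 and 51 bp upstream of the summit, and E-boxes in tandem at this spacing are a known arrangement of CLOCK and BMAL1 sites. Such exact pairs, 6 or 7 bases apart, were found in 10 of 2549 peaks (0.392%). They were counted over the whole peak, and this peak is far wider than the median of 181 bp. The planned count allowed 2 mismatches and stayed within 50 bp of the summit, so the share of exact pairs is a description only. A RORE was centred 9 bp from the summit of this HLF peak.

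Inside HLF, a peak in the second intron of HLF-201 (chr17:53362527-53363500) had a fold enrichment of 8.89, with a −log10 q of 24.8, and its single E-box was centred 39 bp from the summit. It lay 20736 bp into the gene and 1976 bp past the start of the short transcript HLF-211. The remaining peak (chr17:53350876-53350964) was the narrowest of the 10, at 89 bp, with a fold enrichment of 4.49, with a −log10 q of 3.34. Its summit was 83 bp from the start of the antisense long noncoding gene ENSG00000263096, and it held no E-box.

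**Figure D1:**
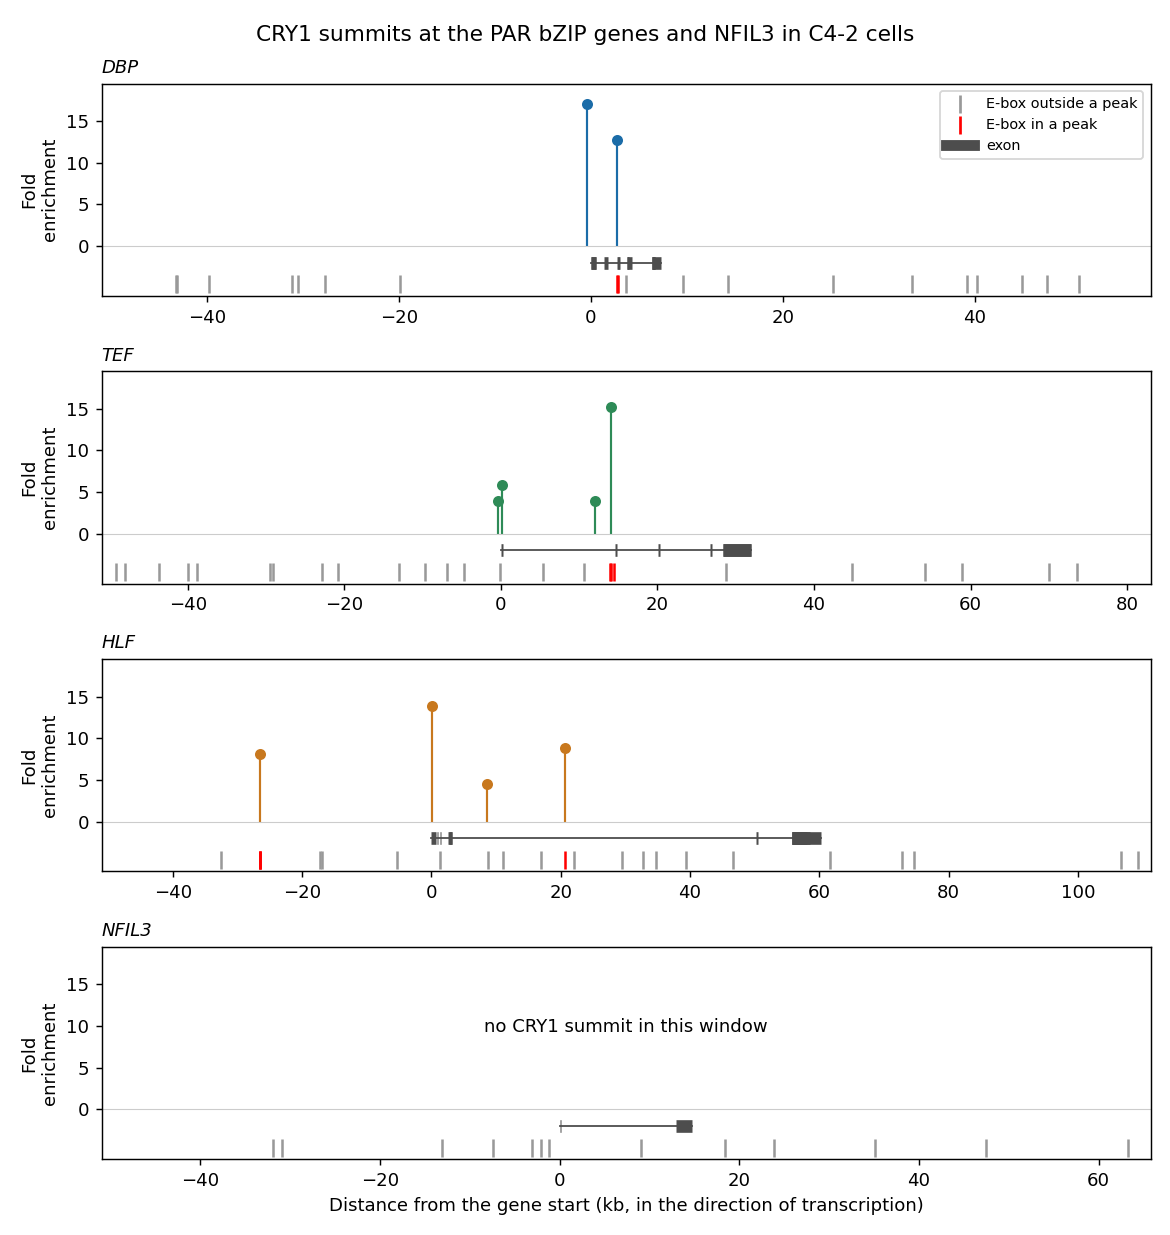
CRY1 summits at DBP, TEF, HLF and NFIL3, by distance from the gene start (x axis, kb, in the direction of transcription), with the height giving fold enrichment, grey boxes the exons, and ticks the E-boxes inside (red) and outside (grey) peaks. Both DBP summits and the strongest TEF and HLF summits reach 12.7 to 17.1, while the NFIL3 panel holds 13 E-boxes and no summit.

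NFIL3 (chr9:94171327-94186114, minus strand) had 0 summits in its body and 0 within 100 kb. The nearest summit was 414 kb away, with a fold enrichment of 3.92, with a −log10 q of 2.43, and the nearest on the other side was 1307 kb away. Such a distance was ordinary for the list: across 20098 protein-coding genes on chromosomes with peaks, the median distance from a gene body to the nearest summit was 278 kb (quartiles 63.8 and 895 kb), and 41.3% of genes were farther away than NFIL3. A summit in or within 50 kb of the body was found for 22.1% of 20162 protein-coding genes, so that NFIL3 belonged with the majority. The activators did not: all 3 had at least 2 summits in that window, as had 8.64% of genes, and TEF and HLF had 4, a number reached or passed by 1.34% of genes. TEF had only 2 when peaks below a fold of 5 were dropped or peaks within 1 kb were merged. HLF had 3 and 4 under these settings, and the shares of genes given here are those of the main setting. Each activator also had a summit within 5 kb of a start, as had 8.22% of genes. Since 3 genes stand against 1, no test of this contrast was made.

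**Figure D2:**
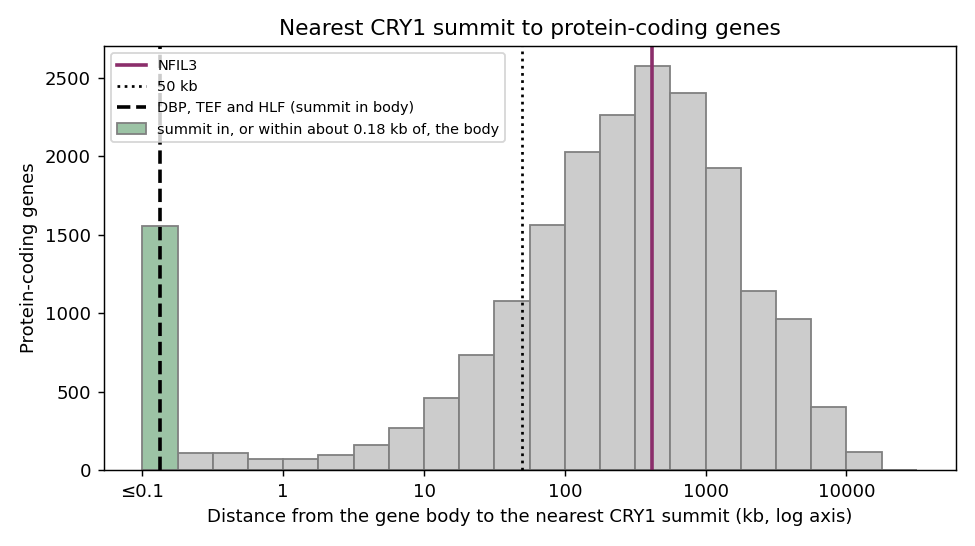
Number of protein-coding genes (y axis) by distance from the gene body to the nearest CRY1 summit (x axis, kb, log axis; the first bin holds genes with a summit in the body or very near it). DBP, TEF and HLF, which have a summit in the body, fall in the first bin (dashed line), and NFIL3 at 414 kb (purple line) falls near the middle of the distribution, whose median is 278 kb.

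TEF and HLF each held 3 summits inside the gene body, a number reached or passed by 0.317% of protein-coding genes (64 genes). Fold enrichment was 15.2, 5.84 and 3.97 at those of TEF and 13.9, 8.89 and 4.49 at those of HLF, so the counts rest partly on weak peaks. HLF is 60228 bp long and TEF 31994 bp, beside a median length of 68.9 kb among those 64 genes. The 5 of them with the highest fold enrichment were NR1D1 and PER1, both clock repressor genes with 3 summits in the body, ENSG00000263620, a readthrough gene that overlaps PER1, with 7, and the long genes ITPR2 and PTPRN2 with 3 each. TEF stood just below PTPRN2, and both round to a fold enrichment of 15.2.

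In strength the activators' peaks were uneven, and they are divided here at a gap chosen after the values were seen. Fold enrichment was 8.09 or more in 6 of the 10, all within the first 500 of the list, and 3 of these ranked within the first 100. The other 4 were the distal and repeat-containing TEF peaks and the narrow HLF peak, at 3.92 to 5.84. The median was 8.49, beside 5.18 for all peaks, and the median width was 722 bp beside 181 bp. Every activator had at least 1 peak with a fold enrichment above 13, and the strongest peaks of DBP (17.1), TEF (15.2) and HLF (13.9) lay close to each other on this scale.

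**Figure D3:**
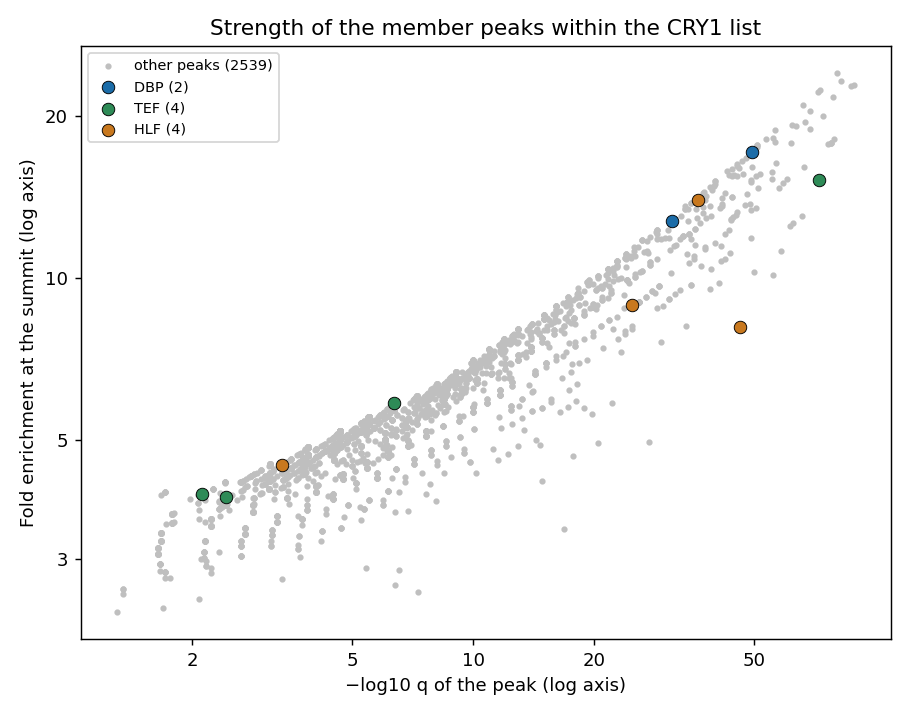
Fold enrichment at the summit (y axis, log axis) against −log10 q (x axis, log axis) for 2549 peaks, with those at DBP, TEF and HLF coloured. Of the 10 member peaks, 6 are at 8.09 or above and 4 at 5.84 or below, and the upstream HLF peak (8.09 and 46.2) has a high −log10 q for its fold enrichment.

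By position, 5 of the 10 summits lay in a promoter, defined from 1 kb upstream to 100 bp downstream of any annotated start of the member gene: both at DBP, the one upstream of each start of TEF, and the one at the start of HLF. The remaining ones were 1 in the 5′ UTR of TEF, 3 in introns (1 in TEF and 2 in HLF) and 1 upstream of HLF. Each activator therefore had a strong promoter summit. The share of all summits in promoters or introns was not computed under this definition. The paper reported that most CRY1 binding events fell in proximal promoters or introns, so these counts describe placement only. The strong summits outside a promoter, at 8.09 and 8.89, were both at HLF and both had an E-box.

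An E-box lay within 50 bp of 4 of the 10 summits, 1 at DBP, 1 at TEF and 2 at HLF (40.0%), beside 47.8% of all summits. The exact 95% binomial interval was 12.2 to 73.8%. That interval covers counting error only and takes the summits as independent, although several share a gene. The members' share was thus near the background. It was the same 4 peaks that held an E-box anywhere in the interval, compared with 57.4% of all peaks. Among the 6 strong peaks, the upstream peak of DBP and the peak at the start of HLF had none. The promoters of the main DBP and HLF starts thus had summits without a CACGTG, whereas the DBP promoter summit at DBP-204 had an E-box. In these promoter windows, 250 bases before to 50 after a start, CACGTG was found in 8.22% of 56285 protein-coding promoters. The main DBP and HLF starts and the NFIL3 start had 0, and both TEF starts had 1. The internal DBP starts, of DBP-204 and DBP-202, had 1 and 2.

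A RORE was found at 3 of 2549 summits in all (0.118%), and 2 of these 3 were member summits, the upstream ones of DBP and HLF. The third lay on chromosome 17, nearest to MIR4729. These counts are too small for more than description, and the motif was singled out after its positions were seen. A RORE was also rare in promoters, at 0.270% in the longer promoter window. The windows of 50 kb on each side held 2 RORE matches at DBP, 3 at TEF, 4 at HLF and 1 at NFIL3, of which 2, 0, 1 and 0 lay inside a peak.

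**Figure D4:**
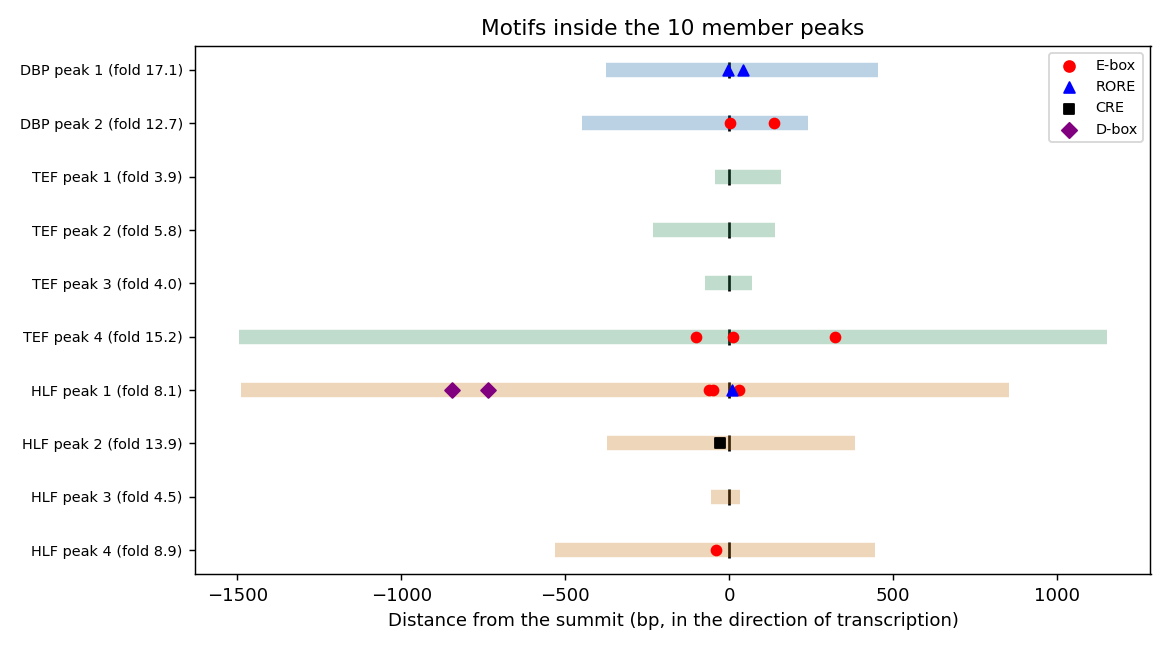
The 10 member peaks as bars around their summits (x axis, bp, in the direction of transcription), with E-boxes, ROREs, CREs and D-boxes inside each peak as symbols. E-boxes lie within 50 bp of the summit in 4 peaks; the upstream DBP peak has ROREs and no E-box, and the upstream HLF peak has 3 E-boxes, 1 RORE and 2 D-boxes.

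The E-boxes of the loci were then counted whether or not a peak was present. DBP with its flanks held 19 E-boxes, TEF 25, HLF 23 and NFIL3 13, or 1.77, 1.89, 1.44 and 1.13 per 10 kb, compared with a median of 1.05 over all protein-coding loci. Per 10 kb, NFIL3 was thus slightly above the median of other genes, although its count of 13 was below the median count per locus. Both its count and its density were the lowest among the members. Whether E-box number bears on the absence of a peak at NFIL3 was not tested. Peaks covered 2 of the 19 at DBP (10.5%), 3 of the 25 at TEF (12%) and 4 of the 23 at HLF (17.4%), in all 9 of 67. At NFIL3 they covered 0 of 13, which had to follow because no peak lay in its window. The shares at the activators likewise depend on how many peaks these loci held and how wide the peaks were. Across the chromosomes, 0.682% of 275867 E-boxes lay in a peak, and 16.3% of protein-coding loci of the same kind had at least 1 E-box in a peak.

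Most E-boxes near the activators were thus outside peaks, among them 1 at 1312 bp into HLF and 1 at 3707 bp into DBP. NFIL3 had 3 E-boxes within 5 kb of its start, all upstream and the closest at 1152 bp, and these are shown for comparison with those in peaks.
NFIL3, chr9:94187253-94187278, minus strand: gggagtgtgcCACGTGccttgacagt
NFIL3, chr9:94188230-94188255, minus strand: aaggtcagaaCACGTGaaggggaggg
NFIL3, chr9:94189231-94189256, minus strand: tgccacagtcCACGTGtggctaacgt
Of the 20 bases beside each hexamer, the median number that were G or C was 13.0 for the 9 E-boxes in peaks (range 9 to 17), 11 for the other 58 at the activators (5 to 18) and 9 for the 13 at NFIL3 (6 to 14). The ranges overlapped.

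**Figure D5:**
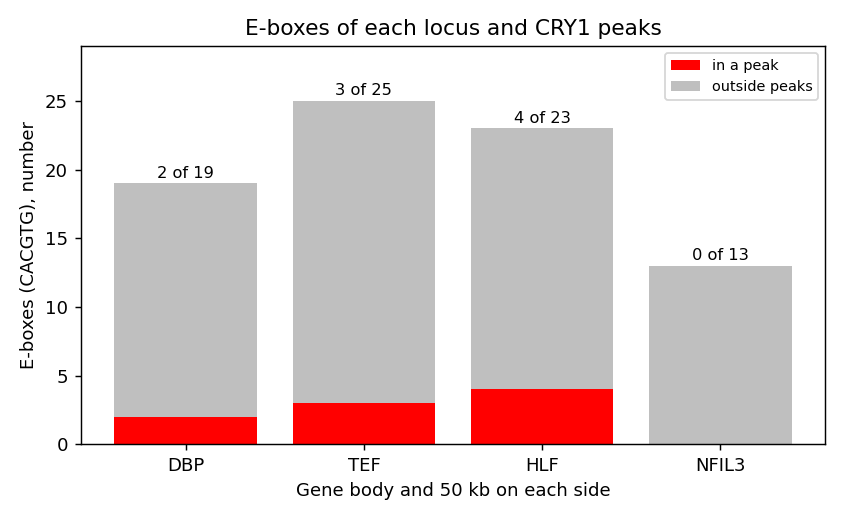
Number of E-boxes (y axis, CACGTG) in each gene body with 50 kb on each side, divided into those in a CRY1 peak (red) and those outside (grey). The activator loci have 2 of 19, 3 of 25 and 4 of 23 in a peak. NFIL3 has 0 of 13, because no peak lies in its window.

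The partners and targets of these factors were examined through 3 gene lists. Of 10 clock genes known to be reached by D-box factors, 8 had a summit within 50 kb of the body and the same number had one within 5 kb of a start, beside 22.1% and 8.22% of protein-coding genes. RORA and RORB had none. The list was chosen with earlier results of these data known, and the authors had reported CRY1 binding at PER2, PER3 and CRY1. These counts are therefore a description only. Fold enrichment at the strongest peak was 22.8 at PER2, a clock repressor, 17.8 at PER1, PER3, NR1D1 and NR1D2, 11.2 at CRY1 and 10.1 at CIART (a summit nearest to the start of ENSG00000289041). The strongest DBP peak (17.1) was thus below that of PER2 and close to those of PER1, PER3, NR1D1 and NR1D2 on this scale, and the strongest peaks of TEF and HLF lay between these and CRY1.

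Of 11 metabolic genes known as PAR bZIP targets, 2 had a summit within 50 kb (18.2%, beside 22.1% of all). PDXK, the pyridoxal kinase that makes the active form of vitamin B6, had 2 summits. The nearest was 17 bp from a start, and the strongest peak had a fold enrichment of 7.18 and an E-box within 50 bp of its summit. CYP2A6, which metabolises nicotine, had 1 summit 12.9 kb from a start (5.69), nearer to the start of the pseudogene CYP2F2P. POR, ALAS1, NR1I3, CES2, CYP2B6, CYP3A4, CYP7A1, ABCB1 and DDC had none. Of 11 bZIP genes of other families, 1 had a summit (9.09%), namely CEBPE at 34275 bp from its start, and that peak (fold enrichment 15.8) was nearest to SLC7A8. CEBPA, CEBPB, CEBPD, CEBPG, DDIT3, ATF4, ATF5, CREB1, ATF1 and CREM had none, as NFIL3 had none.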

How the data were processed

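CRY1 ChIP-seq of C4-2 cells was analysed from a single list of peaks. Reads had been aligned by the authors with bowtie2 at its defaults to hg19, and the authors called peaks with MACS2 on the combined replicates at q below 0.05. Duplicate handling, the removal of problem regions and the use of the input as control were not given in the sources used here. The values deposited for each peak were the fold enrichment, a linear ratio to the local background, and the −log10 q of the authors. Both were used only to describe and rank peaks. Summits were the start plus the deposited offset, and 2 peaks on unplaced contigs were counted only in the total and in the ranks.

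Genes were taken from GENCODE release 44 mapped to GRCh37, and sequence from GRCh37, which is the assembly of hg19. Motifs were searched on both strands with python 3.11.15 and pysam 0.24.0. These were the E-box (CACGTG), the E′-box (CACGTT), the D-box (TTACGTAA or TTATGTAA), the GC box (GGGCGG) and the RORE consensus, with the CRE and CACATG added after the values were seen. An E-box was called inside a peak only when all of its bases were. The motif scan was tested on simulated sequence of A and T with planted E-boxes and E′-boxes, and the region assignment on simulated positions. The patterns of the other motifs were not tested in this way. Named genes were the 4 members, list genes with a summit (1 is not reported here), genes whose start is nearest to a member summit, and up to 5 genes with as many summits in the body as the richest member. MIR4729, CA11, CYP2F2P, SLC7A8, ENSG00000289041 and the list genes without a summit were added after the values were seen. The members, lists and motifs were chosen with earlier results of these data known. No test was run, since the list is pooled. Alternatives changed the window, peak threshold, merging, transcripts, promoter definition and motif window.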

Additional observations from a re-analysis of the deposited data

How the results depend on the processing

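Of 66 recomputed values, 57 stayed close to the reported one (counts within 1.5 times). The counts at DBP (2) and NFIL3 (0) were the same under each of the 8 alternatives tried for them, and HLF had 3 or 4. TEF had 2 summits when peaks below a fold of 5 were dropped, and 2 with peaks merged within 1 kb. Summits in promoters numbered 8 with 5 kb to either side and 3 with 1 canonical transcript per gene, because TEF-201 and DBP-201 leave out the distal and short starts. Summits with an E-box numbered 2 with 25 bp to each side (29.6% of all summits) and 1 at the midpoint of the peak (32.4%). E-boxes of the activator loci numbered 4 within 50 bp of a summit. Within 5 kb of a start, 1 PAR bZIP target and 0 other bZIP genes had a summit. The E-box anywhere in the interval was added after seeing the data. No paired analysis was possible because the peaks were called on pooled libraries, and leaving out a replicate was not possible for the same reason. A weak site missed at NFIL3 was not detectable at this unknown depth.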

Other observations

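The D-box, the element that DBP, TEF, HLF and NFIL3 themselves bind, was searched as TTACGTAA and TTATGTAA. It lay within 50 bp of 7 of 2549 summits (0.275%) and of 0 of the 10 member summits. The loci with 50 kb on each side held 2 D-boxes at DBP, 2 at TEF, 10 at HLF and 11 at NFIL3. The closest to a gene start was 355 bp away, at NFIL3, followed by 747 bp at TEF. Inside peaks there were 2, both in the upstream HLF peak, 846 and 736 bp upstream of its summit.

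E-boxes followed after 6 or 7 bases by a second hexamer with at most 2 mismatches to CACGTG were found within 50 bp of the internal DBP summit and the HLF intron summit, beside 10.2% of all summits. The exact pair of the upstream HLF peak lay just outside that window, at 51 and 63 bp.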
